A study of Mus musculus with 9 samples.

Results

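The genes described here are 8 transcription factors that give cells of the gut tube and pancreas their identity: Hnf4a, Foxa1, Foxa2, Gata6, Pdx1, Sox9, Onecut2 and Nr5a2. They were taken as a fixed list of symbols and matched to 8 of the 54838 Ensembl gene identifiers measured. RNA was sequenced from 9 cultures of mouse pancreatic ductal adenocarcinoma cells, 3 in each of 3 groups. All descend from PDA530 Met, cells cultured from a liver metastasis in a KPC mouse, a male of mixed 129/SvJae/C57Bl/6 strain; the design text spells the parental line PDA50 Met, and both spellings are taken as 1 line. The knockout group is the single-cell clone E4, in which the palmitoyltransferase gene Zdhhc20 was edited with CRISPR/Cas9. The control group is the single-cell clone C5, which was nucleofected with those guide RNAs too but came out unedited and still expresses Zdhhc20. The parental group is the uncloned line. Cells were untreated and harvested during normal growth. The knockout and control groups are 1 clone each, so any difference between them includes whatever distinguishes 2 single cells of the line. KPC mice, in their usual form, carry a Cre recombinase transgene under the Pdx1 promoter; whether reads of such a transgene enter the Pdx1 count was not tested.

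FOXA proteins open chromatin ahead of other factors in endoderm, and HNF4A, a nuclear receptor, and the zinc finger factor GATA6 act with them on genes of liver, gut and pancreas. PDX1, a homeodomain protein, marks the early pancreas and later the islets, SOX9 marks pancreatic progenitors and adult ducts, ONECUT factors act in liver and pancreas development, and NR5A2 is a nuclear receptor of acinar cells. In pancreatic cancer, GATA6, FOXA2, PDX1 and HNF4A are known as genes of the classical, better differentiated tumour state.

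Libraries held 16525869 to 23192701 counts. Levels are in CPM, counts relative to a library size that TMM scaling adjusts for composition, and means carry the SD over 3 libraries. A gene was called when its adjusted p was under 0.05 in the edgeR quasi-likelihood test over 13153 genes, in 1 fit of all 9 libraries. Zdhhc20 itself was at 37.5, 33.9 and 42.5 CPM in E4, 123, 85.8 and 120.2 CPM in C5, and 75.3, 81.2 and 90.7 CPM in the parental line, with log2 fold changes in E4 of -1.53 (adjusted p 6.97e-05) and -1.12 (adjusted p 0.000585). The ductal keratins Krt8, Krt18 and Krt19 were present in every group, at means of 172 to 2754 CPM, whereas Epcam, another common epithelial marker, stayed at means of 0.15 to 0.61 CPM. Fibroblast markers summed to 0.818 to 4.0 CPM per library and leukocyte markers to 0.946 to 2.92 CPM, with Dcn, Lum, Col1a2 and Cd3e at 0 counts in all 9 libraries.

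Of the 8 factors, 7 passed the filter on low counts and Nr5a2 was silent. Nr5a2 (ENSMUSG00000026398, chromosome 1 from 136842571 to 136960448 in GRCm38) had 1 count in knockout replicate 3, 1 count in parental replicate 2 and 0 counts in the other 7 libraries. The 0 counts of the C5 clone, among 59891375, allow a level of up to 0.0501 CPM by the limit of 3 counts per total, and of up to 0.0616 CPM by the exact 95% Poisson interval. A single count in E4 corresponds to 0.0181 CPM, with an exact 95% Poisson interval from 0.000457 to 0.101 CPM, and in the parental line to 0.0185 CPM, with an interval from 0.000469 to 0.103 CPM. These limits cover counting error only. No fold change was given for Nr5a2. In bulk RNA, fewer expressing cells and less RNA per cell cannot be told apart, for this gene and for all that follow.

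In plain terms, the knockout clone E4 held less Gata6 and more Foxa1 than both other groups; the Gata6 calls held in all 17 alternative fits, while the Foxa1 call against C5 was lost in 3 of 17. Hnf4a and Foxa2 were lower in both clones than in the parental line. Pdx1 was lower in E4 than in the parental line without overlap, a call lost in 4 of 17, each with 1 E4 or parental library left out. Onecut2 was lower in E4 than in C5 with overlapping libraries, a call lost in 7 of 17 alternative fits, and Sox9 was called in none of the 3 comparisons in the fit of all 9 libraries. Against the C5 clone, 3 of the 7 tested factors were called, against 42.9% of all tested genes, a share near that background. By direction, 1 of 7 was higher (18.7% of all genes) and 2 of 7 were lower (24.2%). Against the parental line, 5 of 7 were called (31.4% of all genes), with 1 higher (13.1%) and 4 lower (18.3%). Between the C5 clone and the parental line, 3 of 7 were called (21.4% of all genes), with 1 higher (10.4%) and 2 lower (11%). The E4 clone differed in the same direction from both other groups in Foxa1, 1 of 7 higher against 8.19% of all genes, and in Gata6, 1 of 7 lower against 13.4%. The median log2 fold change of the 7 factors was -0.38 against the C5 clone and -0.39 against the parental line, where the medians of all tested genes were -0.02 and -0.01, and -0.07 between the C5 clone and the parental line, where all genes had 0.01. Each median of the 7 is the value of 1 factor, in that order Sox9, Foxa2 and Gata6. The Sox9 value against the C5 clone moved widely, and that of Gata6 changed sign, with single libraries left out, as given below. The comparisons share libraries, so their results are not independent of each other.

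**Figure D1:**
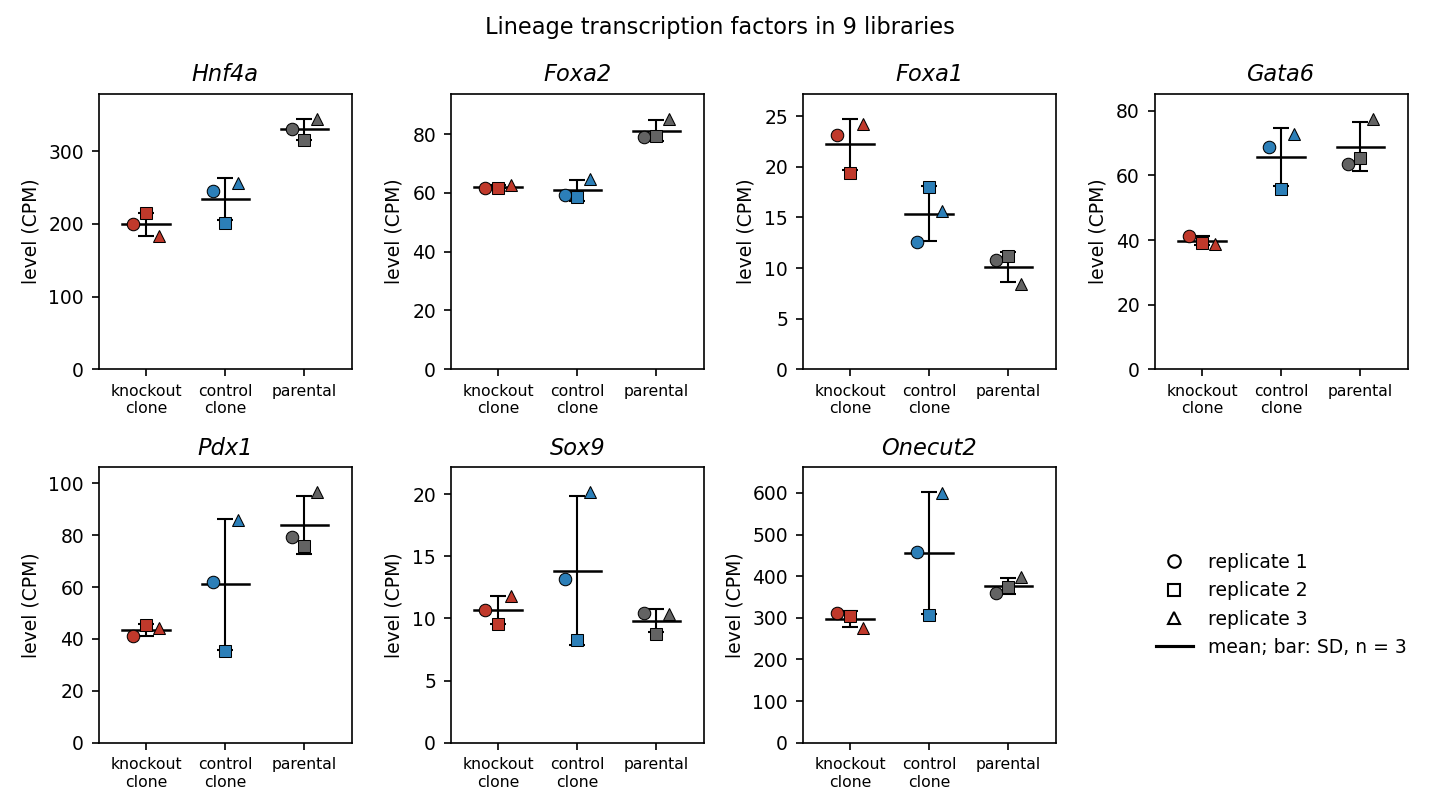
Level of each of the 7 tested factors (y axis, CPM after TMM scaling, from 0) in the 3 libraries of each group; symbols mark replicate numbers, horizontal lines the mean and bars the SD (n = 3). Foxa1 is highest and Gata6 lowest in E4 without overlap with other groups, Hnf4a and Foxa2 are highest in the parental line, and Pdx1, Sox9 and Onecut2 spread widely within C5.

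Hnf4a (ENSMUSG00000017950, chromosome 2 from 163506808 to 163572910) had the highest level per length of the 8. Its levels were 199.1, 215 and 183 CPM in E4, 246, 202 and 255 CPM in C5, and 330.0, 316 and 345 CPM in the parental line. All 6 clone libraries were below the 3 parental ones, while the ranges of the clones overlapped. Against the parental line the log2 fold change was -0.73 in E4 (SE 0.10, adjusted p 0.000778) and -0.49 in C5 (SE 0.10, adjusted p 0.00897). The clones differed by -0.23 (SE 0.10, adjusted p 0.0897), which was not called; without control replicate 2 it was -0.33 and called (adjusted p 0.00776), and without control replicate 3 it was -0.17 (adjusted p 0.193). Hnf4aos, an antisense transcript that overlaps the gene body but no exon, had 0 to 4 counts per library.

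Foxa2 (ENSMUSG00000037025, chromosome 2 from 148042877 to 148046969) followed Hnf4a most closely. It was at 61.8, 61.7 and 62.7 CPM in E4, 59.3, 58.5 and 64.9 CPM in C5, and 78.9, 79.5 and 85.3 CPM in the parental line. Both clones lay below the parental libraries and overlapped each other. The log2 fold change against the parental line was -0.39 in E4 (SE 0.07, adjusted p 0.00324) and -0.42 in C5 (SE 0.07, adjusted p 0.00403). Between the clones it was 0.03 (SE 0.07, adjusted p 0.783). Foxa2 was also the steadiest factor, since its highest library exceeded its lowest by 1.02 times in E4 and 1.11 times in C5.

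Foxa1 (ENSMUSG00000035451, chromosome 12 from 57540628 to 57546916), the close relative of Foxa2, went the other way. It was at 23.1, 19.4 and 24.2 CPM in E4, 12.5, 18.0 and 15.6 CPM in C5, and 10.8, 11.1 and 8.41 CPM in the parental line. The 3 groups formed 3 steps that did not overlap. On the log2 scale E4 was higher by 0.54 than the C5 clone (SE 0.16, adjusted p 0.0235) and by 1.13 than the parental line (SE 0.17, adjusted p 0.000955), a 2.2-fold difference. The C5 clone was also higher than the parental line, by 0.60 (SE 0.17, adjusted p 0.0312). The knockout call against the parental line held in all 17 alternative fits, but the first call was lost without knockout replicate 1 (adjusted p 0.064), knockout replicate 3 (0.082) or control replicate 1 (0.0797). The call between control and parental cells was lost in 7 alternatives, with adjusted p from 0.0514 to 0.106: without knockout replicate 1, control replicate 2 or any parental replicate, with the third group left out, and with the replicate number as a block. Per kilobase of exon, Foxa2 stood above Foxa1 by 3.64 to 4.47 times in the knockout libraries, 4.57 to 6.65 times in the control libraries and 10.0 to 14.2 times in the parental libraries. The median log2 fold change of the 466 tested genes of chromosome 12 was -0.25, 0.02 and 0.29 in the knockout to control, knockout to parental and control to parental comparisons, so Foxa1 was above its chromosome in all 3.

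The sequences before the starts of Hnf4a, Foxa2 and Foxa1 are shown because Hnf4a and Foxa2 had the most similar levels across the 9 libraries of any 2 factors, and Foxa1 was the least similar to each of the other 6 tested factors. They are from RefSeq promoters (build GRCm38.p6), which held 5 of the 8 factors, and are written in the direction of transcription. Each window was searched on both strands for short letter strings bound by the families of the 8 factors. The SOX string was ACAATGG (in 3.02% of 32851 RefSeq windows of 250 bases), the HNF4 string was CAAAGTCCA (0.384%), the PDX string was TCTAATG (1.77%) and the NR5A string was CAAGGTCA (1.33%). For FOXA the strings were TGTTTAC (3.17%) or else TGTTTGC (4.3%), for ONECUT they were ATTGATT (2.61%) or else ATCGATA (0.213%), and for GATA it was AGATAA (9.99%). Overlaps between strings were allowed. Capitals mark matches that lie whole within the printed bases.
Hnf4a, chr2:163506607-163506807, plus strand: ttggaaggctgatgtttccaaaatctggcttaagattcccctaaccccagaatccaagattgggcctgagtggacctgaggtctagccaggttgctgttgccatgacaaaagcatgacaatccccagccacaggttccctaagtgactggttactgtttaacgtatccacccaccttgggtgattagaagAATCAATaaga
Foxa2, chr2:148046970-148047219, minus strand: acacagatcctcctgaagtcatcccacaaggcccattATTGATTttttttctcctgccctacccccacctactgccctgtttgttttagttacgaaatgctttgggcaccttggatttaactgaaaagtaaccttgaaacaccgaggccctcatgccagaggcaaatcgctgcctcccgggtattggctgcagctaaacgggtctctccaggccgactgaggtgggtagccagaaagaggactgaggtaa
Foxa1, chr12:57546112-57546361, minus strand: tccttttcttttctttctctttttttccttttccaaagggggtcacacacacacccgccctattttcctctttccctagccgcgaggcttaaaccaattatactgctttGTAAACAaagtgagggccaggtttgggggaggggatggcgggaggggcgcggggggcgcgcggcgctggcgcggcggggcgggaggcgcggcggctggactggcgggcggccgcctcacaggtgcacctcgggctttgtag

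The ONECUT letters ATTGATT stood before the upstream RefSeq start of Hnf4a, on the opposite strand at -60 to -54, and before the outermost start of Foxa2, at -213 to -207, with positions counted back from the RefSeq start. Hnf4a had the GATA letters AGATAA at -52 to -47 too, not in capitals because they run past the printed bases into a GENCODE exon. Foxa1 had the FOXA letters TGTTTAC at -141 to -135 on the opposite strand. None of the other strings occurred in the 3 windows. Foxa2 has further RefSeq starts inside the gene at 148045948, whose window held none of the strings, and at 148045464, whose window held AGATAA at -183 to -178. The Foxa1 window lies inside the GENCODE gene, with 10 of its 250 bases exonic. Hnf4a has a second RefSeq start at 163547155, and gene counts cannot separate transcripts from the 2 starts. A match of letters is a description and not a bound site.

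**Figure D2:**
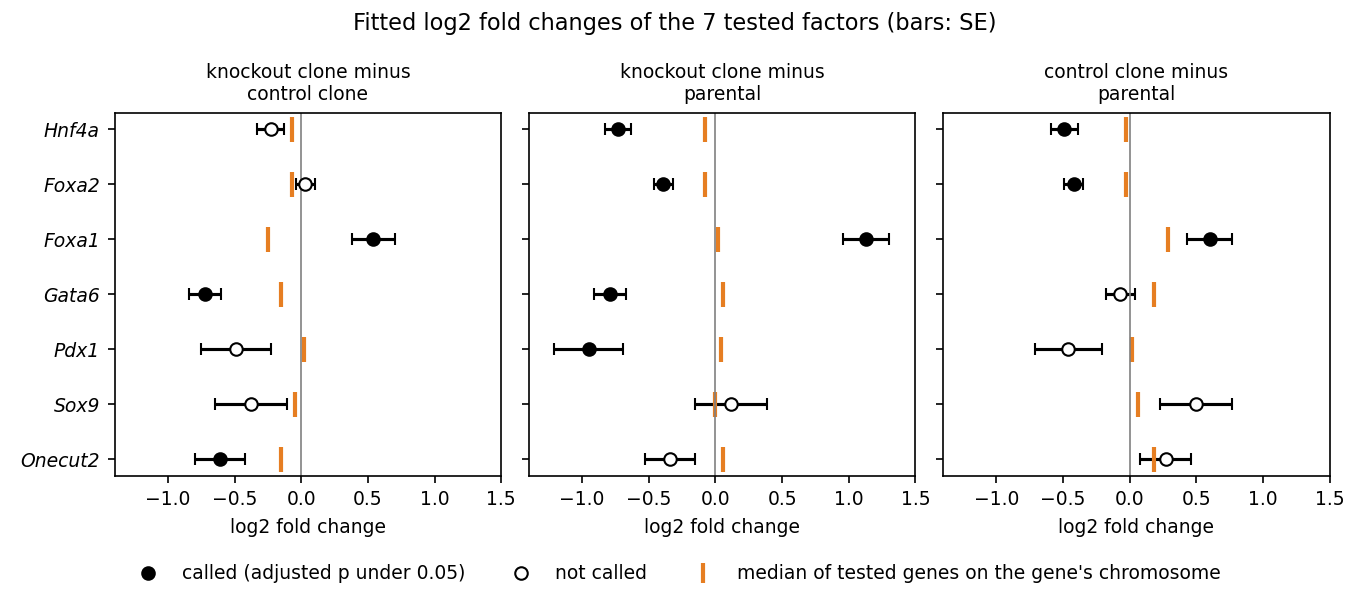
Fitted log2 fold changes (x axis) of the 7 tested factors in the 3 comparisons, with SE as bars; filled circles were called, open circles were not, and orange ticks give the median of all tested genes on the chromosome of that factor. Foxa1 lies to the right in all 3 panels at 0.54, 1.13 and 0.60, and Gata6 lies to the left in both knockout panels at -0.72 and -0.79.

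Gata6 (ENSMUSG00000005836, chromosome 18 from 11052064 to 11085635) was low in E4 alone. Its level was 41.4, 39.2 and 38.8 CPM in E4, 68.7, 55.7 and 72.7 CPM in C5, and 63.7, 65.4 and 77.6 CPM in the parental line. The knockout libraries lay below the other 6, which overlapped each other. E4 had a log2 fold change of -0.72 against the C5 clone (SE 0.12, adjusted p 0.000994) and -0.79 against the parental line (SE 0.12, adjusted p 0.000974), and both calls held in all 17 alternative fits. The C5 clone and the parental line differed by -0.07 (SE 0.11, adjusted p 0.708). The medians of the 339 tested genes of chromosome 18 were -0.15 and 0.06 in the knockout comparisons. The transcript 1010001N08Rik runs from the opposite strand over the start of Gata6, sharing 93 exon bases, so reads there could be assigned to either gene. It had 13 to 17 counts in the knockout libraries against 29 to 61 in the others, and fell, with log2 fold changes of -1.60 against the C5 clone (adjusted p 0.00158) and -1.19 against the parental line (adjusted p 0.0115). Gata6 itself had 665 to 848 counts in the knockout libraries.

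Pdx1 (ENSMUSG00000029644, chromosome 5 from 147269959 to 147275848) had levels of 41.0, 45.3 and 44.1 CPM in E4, 61.9, 35.3 and 85.8 CPM in C5, and 79.3, 75.8 and 96.6 CPM in the parental line. The knockout libraries were all below the parental ones. Those of the C5 clone reached from below the knockout range into the parental range. The log2 fold change of the E4 clone was -0.95 against the parental line (SE 0.26, adjusted p 0.0204). This call did not survive the removal of knockout replicate 1 (adjusted p 0.0775), 2 (0.0585) or 3 (0.0627) or of parental replicate 3 (0.0814). With the third group left out its adjusted p was 1.81e-05, and without control replicate 2 or 3 it was 0.000363 or 0.00314. Against the C5 clone the log2 fold change of E4 was -0.49 (SE 0.26, adjusted p 0.148), which was not called. Without control replicate 2 it was -0.76 and called (adjusted p 0.00164), and without control replicate 3 it was -0.17 (adjusted p 0.525). The C5 clone differed from the parental line by -0.46 (SE 0.25, adjusted p 0.23), by -0.78 without control replicate 3 (adjusted p 0.0198) and by -0.19 without control replicate 2 (adjusted p 0.354). Plut, an antisense transcript over the start of Pdx1 with no shared exon bases, had 42 to 110 counts per library and was called in none of the comparisons.

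Onecut2 (ENSMUSG00000045991, chromosome 18 from 64340020 to 64400987) had levels of 311, 305 and 276 CPM in E4, 458, 307 and 601 CPM in C5, and 359, 374 and 397 CPM in the parental line. The knockout libraries were below the parental ones, and the lowest control library fell among the knockout ones. Against the C5 clone its log2 fold change in E4 came to -0.61 (SE 0.19, adjusted p 0.0292). This call held in 10 of 17 alternatives. It was lost without any of the knockout replicates (adjusted p 0.0729, 0.0774 and 0.0966), without control replicate 1 (0.0709) or 3 (0.0646, with the value at -0.36), without parental replicate 2 (0.0512) and with the third group left out (0.0769). Against the parental line it was -0.34 (SE 0.19, adjusted p 0.209). That difference was called with the third group left out (adjusted p 0.00104) and without control replicate 2 (adjusted p 0.0216). The C5 clone was 0.27 above the parental line (SE 0.19, adjusted p 0.348), and without control replicate 2 it was 0.49 above it and called (adjusted p 0.0104). Without control replicate 3 that difference was 0.02 (adjusted p 0.921).

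Sox9 (ENSMUSG00000000567, chromosome 11 from 112782224 to 112787760) was the lowest of the 7 tested factors per length. It was at 10.7, 9.51 and 11.8 CPM in E4, 13.1, 8.27 and 20.2 CPM in C5, and 10.4, 8.72 and 10.4 CPM in the parental line. All 3 groups overlapped. None of its log2 fold changes was called with all 9 libraries: they came to -0.38 (SE 0.27, adjusted p 0.275) and 0.12 (SE 0.27, adjusted p 0.776) for knockout against control and parental cells, and 0.50 (SE 0.27, adjusted p 0.217) for control against parental cells. Without control replicate 2 the first became -0.63 (adjusted p 0.0144) and the last 0.75 (adjusted p 0.0134), and both were called. Without control replicate 3 they were -0.02 (adjusted p 0.955) and 0.13 (adjusted p 0.634).

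Pdx1, Sox9 and Onecut2 thus shared a wide spread within 1 clone. The highest control library exceeded the lowest 2.44 times for Sox9, 2.43 times for Pdx1 and 1.96 times for Onecut2, with replicate 2 lowest and replicate 3 highest for each. Hnf4a, Foxa2 and Gata6 had the same order in C5 over narrower ranges of 1.27, 1.11 and 1.31 times. In the other groups Sox9, Pdx1 and Onecut2 spanned at most 1.27 times. The SD of log2 CPM within C5 was 0.64 for Sox9, 0.65 for Pdx1 and 0.49 for Onecut2, where the median of all tested genes was 0.24 there, against 0.09 in E4 and 0.10 in the parental line. In C5 these SDs were above those of 89.5%, 89.9% and 81.2% of tested genes. Of the 7 factors, 6 were higher in control replicate 3 than in replicate 2 and Foxa1 was lower, with a log2 difference of -0.20; the median over all 7 was 0.38. Of all tested genes 50.5% were higher, and the median size of their difference, whatever its direction, was also 0.38. Zdhhc20 was lowest in control replicate 2 as well, and the 16 ductal genes summed to 8805 CPM there against 11500 and 12159 CPM in replicates 1 and 3. The wider list of 35 lineage factors described below instead summed highest there, to 454 CPM against 437 and 400 CPM. The part of these differences in the results was not tested. Without control replicate 2, 6 of the 7 factors were called between the clones, as were 53.5% of all genes.

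**Figure D3:**
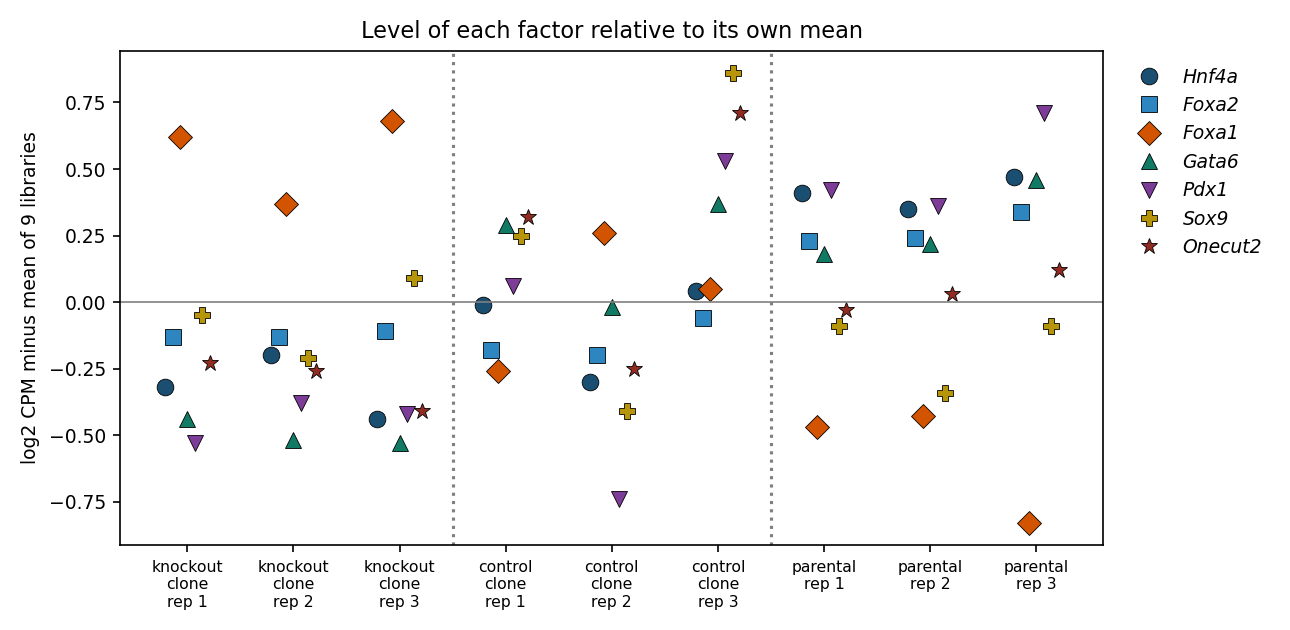
Log2 CPM of each factor in each library minus its own mean over the 9 libraries (y axis), with libraries on the x axis, groups parted by dotted lines and symbols shifted sideways for legibility. Within C5 all factors but Foxa1 are lowest in replicate 2 and highest in replicate 3, with the widest ranges in Sox9, Pdx1 and Onecut2. Foxa1 is the only factor above its mean in all knockout libraries and below it in all parental ones.

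Levels of different genes were compared per kilobase of annotated exon. Hnf4a was first in every group, at 41.2 ± 3.38 CPM per kilobase in E4, 48.5 ± 5.93 in C5 and 68.4 ± 3.0 in the parental line (SD, n = 3), above 90.1%, 91.6% and 94.5% of tested genes. In the parental line Pdx1 at 38.9 and Foxa2 at 34.3 CPM per kilobase came next and overlapped each other, followed by Onecut2 at 23.2, Gata6 at 10.6, Foxa1 at 3.04 and Sox9 at 2.38, each without overlap with the next. In the C5 clone Pdx1, Onecut2 and Foxa2 overlapped as neighbours at 28.3, 28.0 and 25.7, Gata6 stood alone at 10.1, and Foxa1 at 4.62 overlapped Sox9 at 3.35. In the E4 clone Foxa2 was second at 26.2, above Pdx1 at 20.1 and Onecut2 at 18.3, which overlapped. There Foxa1 at 6.68 CPM per kilobase overlapped Gata6 at 6.12, whereas Gata6 was above Foxa1 without overlap in both other groups. Exon length summed over all annotated transcripts stands in for the length of the expressed ones, so the order of close neighbours depends on it.

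Likeness of level patterns was measured as the root mean square difference of log2 CPM, centred on each gene, over the 9 libraries. Among the factors the closest were Hnf4a and Foxa2 (0.172), Hnf4a and Gata6 (0.23), and Gata6 and Onecut2 (0.236). The farthest were Foxa1 and Pdx1 (0.955) and Foxa1 and Gata6 (0.841). Among 10019 tested genes that averaged 5 CPM or more, those closest to Gata6 included Tmem63a (0.053) and Acsl5, and the 3 closest to Foxa1 were Hapln4 (0.096), Tnfrsf22 and Slc39a14. Hnf4a was closest to Cobll1 (0.057), 4930523C07Rik and Slc25a16, and Foxa2 to Desi2 (0.048), 1110059G10Rik and Smarcal1. The closest to Pdx1 were Dnajb4 (0.096), Rin2 and Hspa1b, to Onecut2 Gapdh (0.084), Hpcal1 and Acadvl, and to Sox9 Irak4 (0.12), Sgms2 and Rras. In a design of 3 groups many genes share a pattern, so these are descriptions.

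The nearest tested gene on either side of each tested factor was compared with it, and some moved with the factor while others did not. Of all tested genes 42.9% were called between E4 and C5 and 31.4% between E4 and the parental line. Next to Foxa1, Ttc6 was 1.17 higher on the log2 scale in E4 than in the parental line (adjusted p 0.00859), where Foxa1 had 1.13, but was not called against C5 (0.65, adjusted p 0.0618) or between C5 and the parental line (0.52, adjusted p 0.2), while Mipol1 on the other side was at -0.15 (adjusted p 0.367). Next to Foxa2, the noncoding transcript 9030622O22Rik fell in E4, with log2 fold changes of -2.90 against the C5 clone (adjusted p 0.000218) and -2.71 against the parental line (adjusted p 0.000517), whereas Foxa2 differed by 0.03 between the clones. Cd93, 389.7 kb away on the far side of Foxa2, was 2.70 higher (adjusted p 0.00683) and 3.43 higher (adjusted p 0.00502). Rbbp8, the nearest tested gene after Gata6 but 547.6 kb away, was 0.66 higher (adjusted p 0.00077) and 0.43 higher (adjusted p 0.0104), the opposite of Gata6. Gm27033, after Pdx1, fell, with log2 fold changes of -0.93 against the C5 clone (adjusted p 0.0466) and -1.41 against the parental line (adjusted p 0.0107). Beside Hnf4a, Ttpal was 0.47 higher (adjusted p 0.0329) and 0.59 higher (adjusted p 0.018), and R3hdml was not called. St8sia3, before Onecut2, was lower in both clones than in the parental line, by log2 fold changes of -4.64 (adjusted p 0.00113) and -3.28 (adjusted p 0.00457), unlike Onecut2. The pseudogene Amd-ps3 beside Onecut2 and the nearest tested genes to Sox9 (Map2k6 at 2256.7 kb and 2610035D17Rik at 256.1 kb) were called in none of the comparisons.

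Relatives of the factors in the same families were mostly silent or low. Of 16 family members, 6 passed the filter and 5 had no count in any library, among them Sox8, Sox10 and Cdx1. Onecut1 had 11 counts in the parental libraries and 0 in either clone, and Hnf4g had 14 in C5, 9 in the parental line and 0 in E4. Against the C5 clone 1 of the 6 tested relatives was higher and 2 lower, against the parental line 0 were higher and 3 lower, and between the C5 clone and the parental line 1 was higher and 1 lower. Of all tested genes 18.7% were higher and 24.2% lower in the first comparison, 13.1% and 18.3% in the second, and 10.4% and 11% in the last. The 3 of 6 called against C5 lie near the 42.9% of all genes; with 6 genes, 5 of them also in the list that follows, nothing is read from these counts. Gata5 fell with Gata6 in E4, to 34.6 ± 0.22 CPM from 55.4 ± 6.35 CPM in C5 and 55.7 ± 2.52 CPM in the parental line (SD, n = 3), with log2 fold changes of -0.68 (adjusted p 0.000429) and -0.69 (adjusted p 0.000642). Gata4 did not: it was 0.33 higher than in C5 (adjusted p 0.0155) and at -0.02 against the parental line (adjusted p 0.903). Onecut3 was at 2.17 ± 0.433 CPM in E4, 6.74 ± 0.272 CPM in C5 and 4.65 ± 0.391 CPM in the parental line, and its log2 fold changes were -1.63 (adjusted p 0.000131) and -1.09 (adjusted p 0.0019). Foxa3 was lower than in the parental line by a log2 fold change of -1.01 (adjusted p 0.0307) and was not called against the C5 clone (-0.56, adjusted p 0.162).

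In a wider list of 35 transcription factors of pancreas and gut development, 12 passed the filter, and 16 were at 0 counts in all 9 libraries. The list repeats 8 of the 16 family members, 5 of them among the 12 tested, so their calls are counted in both lists. Those without a count include Ptf1a, the acinar master regulator, Neurog3, the trigger of islet formation, and Nkx6-1 and Nkx2-2, factors of islet cells. Mafa, also an islet factor, passed the filter at a low level, with 40 counts in E4, 25 in C5 and 39 in the parental line. Against the C5 clone 4 of the 12 were higher and 2 lower (median 0.14), against the parental line 1 was higher and 7 lower (median -0.39), and between the C5 clone and the parental line 1 was higher and 7 lower (median -0.45). The 6 of 12 called against C5 are near the background of 42.9%, and the shares of all genes by direction are those given for the family members. Sox4, a progenitor factor, Onecut3 and Gata5 moved in 1 direction in E4 against both groups. Sox4 was at 499 ± 29.1 CPM there, 215 ± 28.1 CPM in C5 and 274 ± 16.8 CPM in the parental line, with log2 fold changes of 1.21 (adjusted p 3.34e-05) and 0.86 (adjusted p 0.000328).

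**Figure D4:**
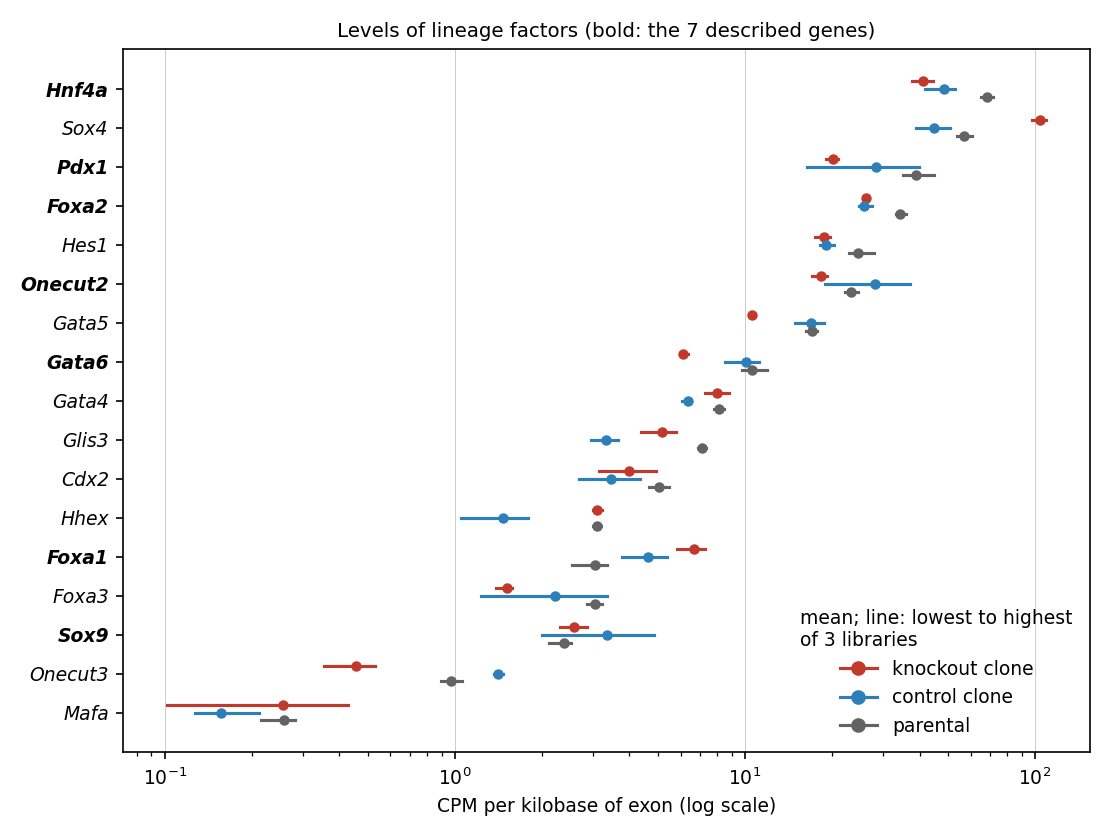
Levels of the 7 tested factors (bold) and 10 other tested lineage factors in CPM per kilobase of exon (x axis, log scale); points are group means, lines run from the lowest to the highest of 3 libraries, and genes are ordered by the parental mean. Hnf4a is the highest of the bold genes in each group and Sox4 reaches the highest level of all in E4.

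Of 12 listed cofactors that bind these proteins or their relatives, 10 passed the filter, and Pbx2, Meis1 and Spop were called in none of the comparisons. Against the C5 clone 4 were higher and 3 lower, against the parental line 1 was higher and 3 lower, and between the C5 clone and the parental line 0 were higher and 4 lower in the edgeR test; the shares of all genes by direction stand beside the family members above. Zfpm1, a partner of GATA factors, was at 120.1 ± 10.4 CPM in E4, 231 ± 23.9 CPM in C5 and 190 ± 8.12 CPM in the parental line, with log2 fold changes of -0.94 (adjusted p 9.38e-05) and -0.66 (adjusted p 0.00101). Zfpm2, the other GATA partner listed, went the other way against C5: it was at 7.79 ± 1.96 CPM in E4, 2.64 ± 1.44 CPM in C5 and 6.56 ± 0.956 CPM in the parental line, 1.58 higher than in C5 on the log2 scale (adjusted p 0.00518) and at 0.25 against the parental line (adjusted p 0.596). Ppargc1a, a coactivator of HNF4A, was 0.66 higher (adjusted p 0.0426) and 1.10 higher (adjusted p 0.00679). The homeodomain factors Meis2 and Meis3 were lower against both groups, Meis2 by log2 fold changes of -0.75 (adjusted p 0.00341) and -1.51 (adjusted p 0.000129), and Meis3 by -1.68 (adjusted p 0.00253) and -1.59 (adjusted p 0.0051). Nr0b2, a corepressor and known target of NR5A2, had 6 counts in the parental libraries and 0 in both clones.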

How the data were processed

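Counts were estimated and deposited by the authors as RSEM expected counts per gene, 1 column per library; all values were whole, so rounding changed none. Per the submitters' processing notes, STAR 2.5.2, RSEM 1.3.0, DESeq2 1.10.1 and build GRCm38 were used. Annotation release and strand setting are not given in the sources used here. Whether reads in exon bases shared with an antisense gene were told apart is therefore not known. Among the factors only Gata6 has such bases, the 93 shared with 1010001N08Rik. Libraries were made with a KAPA mRNA kit, per the labels. GENCODE M21 on GRCm38 named 54809 of 54838 identifiers and gave positions and exon lengths.

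Counts were filtered with filterByExpr (minimum count 10, total 15) and tested in R 4.3.3 with edgeR 4.0.16 (glmQLFit, glmQLFTest, TMM scaling, group as only term, Benjamini-Hochberg adjustment). SE is the unshrunken log2 fold change over the square root of F. Log2 CPM used a prior count of 2. The fit was tested on simulated data. Replicate cultures are separate biological samples per the labels; no 2 libraries of a group agreed within sampling noise (chi-square per gene at least 4.9). Lists, members and the rule for named genes were chosen with earlier results of these data known. The rule takes all 8 factors, list genes that moved in 1 direction in E4 against both groups (3 highest, 3 lowest by the smaller of the 2 differences), the 3 genes of closest pattern, the nearest tested neighbours and overlapping genes. Gata4, Foxa3, Hnf4g, Onecut1, Mafa, Nr0b2, Zfpm2, Pbx2, Meis1, Spop, the keratins with Epcam, Cftr, Cela1, Pdgfra, Cd68 and the genes at 0 counts were named outside it, after their values were seen. Some genes that the rule takes or the lists hold are not reported here by name.

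Alternatives were DESeq2 1.42.0 size factors or total counts, no filter or a mean of 5 CPM, DESeq2 or limma 3.58.1 voom as the test, a replicate block, only the 2 groups compared, a log2 fold change of at least 1, and each library left out.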

Additional observations from a re-analysis of the deposited data

How the results depend on the processing

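Across 17 alternatives (all but the fold threshold) and 21 log2 fold changes of the tested factors, 326 of 357 values kept direction and side of the threshold, 21 lost a call, 8 gained one and 2 changed sign. Both sign changes were Gata6 between the C5 clone and the parental line, at 0.03 without control replicate 2 and 0.01 without parental replicate 3, in a range from -0.15 to 0.03 with 1 library left out; the difference was called in no fit. Where calls also had to reach an absolute log2 change of 1, the edgeR test left 0, 1 and 0 factors of the 3, 5 and 3 called in the knockout to control, knockout to parental and control to parental comparisons, and 1843, 1392 and 851 of all genes. When the third group was left out of the fit, 6840 genes were called between the E4 clone and the parental line in place of 4131, and 1525 between the C5 clone and the parental line in place of 2814. With 1 library left out, the factors called ranged from 1 to 6, from 4 to 6 and from 2 to 4 in the same order. The count of 1 arose without knockout replicate 1, knockout replicate 3 or control replicate 1, and that of 6 without control replicate 2. All genes called ranged from 4301 to 7204, from 2515 to 5693, and from 1472 to 4102. Counts moved by over 1.5 times without knockout replicate 1 (2626) or parental replicate 3 (2515) for the knockout to parental comparison, and without parental replicate 1 (1472), 2 (1537) or 3 (1792) for the control to parental one. Under total-count scaling, lower genes made up a larger share of the calls between the C5 clone and the parental line (61.2% in place of 51.3%), and no scaling moved the median of all genes beyond -0.04 to 0.01.

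Replicate numbers are shared across groups, but 1 of 9 same-numbered pairs had a correlation of deviations over 0.1 (range -0.13 to 0.21). The levels thus showed little pairing by number, and whether same-numbered cultures were handled together was not tested. Only 3 of 9 libraries correlated best with their own number. With the replicate block 5528, 3941 and 2492 genes and 3, 5 and 2 factors were called. The cause of these changes was not tested.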

Other observations

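Genes that mark the organs in which these factors act were described as well. Of 22 genes of liver, stomach and intestine, 12 passed the filter; in E4 11 were lower and 1 higher than in C5 (median log2 fold change -2.08), and 9 were lower and 0 higher than in the parental line (median -1.28). Between the C5 clone and the parental line 3 were higher and 1 lower. Muc5ac, Gkn2 and Ttr, with 5, 10 and 0 counts in E4, passed the filter only through the other groups. For these genes the filter itself favoured a lower E4, and the counts and medians include them. Of all tested genes, 24.2% were lower and 18.7% higher in E4 than in C5 (median -0.02), 18.3% lower and 13.1% higher than in the parental line (median -0.01), and 11% lower and 10.4% higher in C5 than in the parental line. The duct genes below are read against the same shares. Muc5ac, a gastric mucin, was at 0.0900 ± 0.0313 CPM in E4, 98.1 ± 49.4 CPM in C5 and 9.84 ± 1.53 CPM in the parental line (SD, n = 3). Gkn2, a gastric gene, had log2 fold changes of -2.90 (adjusted p 0.0139) and -2.60 (adjusted p 0.0332). Ttr, a liver gene, had 0 counts in E4, 12 in C5 and 72 in the parental line, so it was at least 3.7-fold and 24.6-fold lower against a floor of 3 counts over the group. Summed over the list, levels were 1672 to 2058 CPM in the knockout libraries, 4303 to 4595 CPM in the control libraries and 2898 to 3148 CPM in the parental libraries.

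Of 16 duct genes 15 passed the filter, with 10 lower and 3 higher than in C5 (median -1.0) and 9 lower and 1 higher than in the parental line (median -0.41). Between the C5 clone and the parental line 4 were higher and 3 lower. Bicc1 and Cftr, with 10 and 11 counts in E4, passed the filter only through other groups, and Epcam, with 34 counts in E4, only through E4. Among duct genes called lower against both groups, Bicc1, Krt19 and Aqp1 ranked first by the smaller of their differences, with log2 fold changes against C5 and the parental line of -5.01 and -8.01, -3.12 and -2.73, and -1.78 and -1.89, and Epcam was 1.96 and 1.58 higher at its low level. Acinar and islet genes were near absent: 1 of 16 and 0 of 15 passed the filter, and 10 of each list had no count. The acinar gene that passed, Cela1, was lower in E4 than in C5 (log2 fold change -2.19) and was not called against the parental line (-0.70). Of 8 fibroblast markers 1 passed, Pdgfra, which was lower in E4 than in C5 (-1.24) and the parental line (-2.04). Of 8 leukocyte markers 1 passed, Cd68, which was lower in E4 than in C5 (-1.10) and was not called against the parental line (-0.78). Of 6 endothelial markers 0 passed, and they summed to at most 0.525 CPM. The part of these markers in the results above was not tested.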
